A study of Homo sapiens with 6 samples.

Results

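The platelet-derived growth factor (PDGF) genes are the 7 genes described here, taken by symbol from the 28181 genes listed for each library. They comprise 4 ligands (PDGFA, PDGFB, PDGFC and PDGFD), 2 receptors with a kinase domain (PDGFRA and PDGFRB) and 1 receptor-like gene (PDGFRL). All 7 reached the minimum mean of 1 normalized count and were among the 23040 genes tested. The cells of every library were UE7T-9, human mesenchymal stem cells (MSCs) from bone marrow that carry hTERT and the E7 gene of a papillomavirus to make them immortal, kept in DMEM. UE7T-9 SHC4 (genotype SHC4-OE in the labels and called so below, 3 libraries) had been infected with a lentivirus carrying SHC4 under a CMV promoter, with puromycin selection. UE7T-9 Cont (Cont below, 3 libraries) is named nontarget with genotype WT in the labels and is described in the methods as carrying GFP in the same vector. The series design speaks of clones without giving their number. The labels call the libraries of a group biological replicates, without saying whether they came from separate infections, clones or cultures. The p-values therefore measure only the spread between these libraries.

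PDGFs are secreted dimers that drive growth, survival and movement of mesenchymal cells, fibroblasts and pericytes. PDGFA and PDGFB are processed inside the cell, whereas PDGFC and PDGFD are secreted with an N-terminal CUB domain that proteases remove before the ligand can bind. PDGFA and PDGFC dimers act on the alpha receptor, PDGFD dimers act mainly on the beta receptor, and PDGFB dimers act on both. The receptors pair on binding ligand and phosphorylate tyrosines that recruit SH2 and PTB domain adapters. SHC proteins, the family to which SHC4 belongs, are adapters of this type. Bone marrow stromal cells are known to carry both receptors.

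The values are normalized counts, that is, the authors' gene counts divided by 1 size factor per library. Depth ranged from 18144993 to 27721397 reads per library, and 3 reads correspond to a normalized count of 2.50 to 3.53. The SHC4 gene itself was at 56.5, 157 and 130 in Cont and at 134870, 119166 and 155006 in SHC4-OE, so each library carried the SHC4 level of its label. Cont replicate 1 stood apart from its group. The correlation of its log2 values across genes was 0.9745 with SHC4-OE replicate 1, against 0.9668 and 0.9622 with the other Cont libraries. SHC4-OE replicate 1 had 0.9783 and 0.9751 with its own group, whose other libraries had 0.9802 with each other. In a chi-square per gene on the reads, smaller for more alike libraries, SHC4-OE replicate 1 was nearer Cont replicate 1 (22.1) than its own group (52.8 and 44.0). Replicate 1 thus differed from the rest in both groups. The fold change of each PDGF gene is given with and without Cont replicate 1. For each SHC4-OE library, Cont replicate 1 had the highest correlation of the Cont libraries. Leaving it out can therefore enlarge differences between the groups. Markers of mesenchymal stem cells were all 9 listed, and their summed normalized count was 82148 to 107261 in Cont and 109395 to 120959 in SHC4-OE. The sum over 7 endothelial markers was at most 158 in any library, with CDH5 at most 1.18. The hematopoietic sum was 340 to 1793 in Cont and 238 to 340 in SHC4-OE, most of it from LCP1, with PTPRC (CD45) at most 6.82. Megakaryocyte and platelet markers, from the cells for which PDGF is named, summed to at most 62.4. Epithelial markers summed to 87.1 to 194 in Cont and 25.8 to 107 in SHC4-OE.

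PDGFRB and PDGFD were the PDGF genes in which all 3 SHC4-OE libraries lay above all 3 Cont libraries. The mean level of PDGFRB was 2.35 times and that of PDGFD 2.58 times the Cont mean. Neither passed limma at an adjusted p below 0.05, and both passed in DESeq2 on the recovered counts. The other 5 genes overlapped between the groups, and PDGFA and PDGFC had fold changes near 0. Limma on log2(normalized count + 1) was the test set for these values, with a call where the adjusted p was under 0.05 and the log2 fold change beyond 1 in either direction. A fold change on that scale understates the change of genes with few reads. Limma called 0 of the 7 PDGF genes, with 3 of them (PDGFD, PDGFRB and PDGFRL) at an unadjusted p below 0.05. Over all genes tested, limma called 0.0521% higher and 0.00868% lower, and 7.47% were higher and 6.96% lower at an unadjusted p below 0.05. DESeq2 called 2 PDGF genes higher and 0 lower, where 1.05% of all genes with an adjusted p were called higher and 1.15% lower. edgeR called 0 of 6, against 0.0568% higher and 0.00631% lower over all genes. At an unadjusted p below 0.05, 2 PDGF genes were higher and 0 lower in DESeq2 (5.09% and 5.31% of all genes) and in edgeR (9.02% and 8.6%). Non-overlapping groups, seen in 2 of the 7, were found for 9.13% of all genes in the higher direction and 10.2% in the lower direction.

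**Figure D1:**
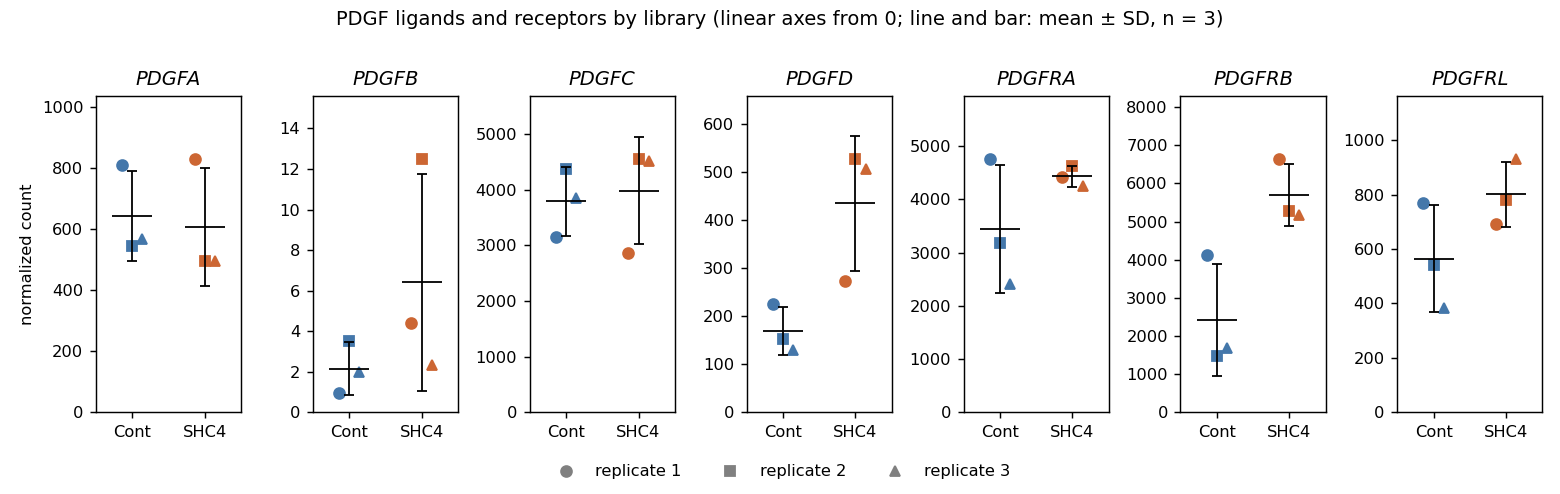
Normalized count (linear axis from 0, a separate scale per gene) of the 7 PDGF genes in the 3 UE7T-9 Cont (blue) and 3 UE7T-9 SHC4 (orange) libraries, with the replicate number shown by the marker and the mean ± SD by the line and bar. PDGFD and PDGFRB are the panels without overlap between groups. The UE7T-9 Cont replicate 1 point lies above the other UE7T-9 Cont points in PDGFA, PDGFD, PDGFRA, PDGFRB and PDGFRL, and below them in PDGFB and PDGFC.

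PDGFRB (ENSG00000113721), the beta receptor, lies at chr5:150113837-150155872 on the minus strand (GRCh38, GENCODE 29), with 25 merged exons that cover 7137 bases. Because it showed the largest log2 fold change in limma of the PDGF genes, the 223 bases upstream of its first annotated exon are shown (chr5:150155873-150156095, minus strand, RefSeq, GRCh38.p14), read 5′ to 3′ with a CCAAT box in capitals.
PDGFRB upstream: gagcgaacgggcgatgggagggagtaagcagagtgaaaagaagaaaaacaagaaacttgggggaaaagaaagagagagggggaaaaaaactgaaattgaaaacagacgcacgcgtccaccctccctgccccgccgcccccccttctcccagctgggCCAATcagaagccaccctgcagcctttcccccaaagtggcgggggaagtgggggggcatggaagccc
The capital letters end 62 bases before the annotated start of the gene. CCAAT was searched on both strands, and 34.6% of 35116 RefSeq windows of 300 bases (250 before and 50 after a start) held it. GGGCGG, the core of a GC box, was held by 45.0% of them, and TTCNNNGAA, the spacing bound by STAT5, by 7.66%. PDGFA, PDGFD, PDGFRA and PDGFRB had windows in that table, 8 in all. Of these, CCAAT was in 3, GGGCGG in 7 and TTCNNNGAA in 0, and the single PDGFD window held GGGCGG but not CCAAT. The windows were not spread evenly over the genes: PDGFA had more of them than any other, and each PDGFA window held GGGCGG. PDGFB, PDGFC and PDGFRL have no window there.

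The normalized count of PDGFRB was 4122, 1487 and 1678 in Cont replicates 1, 2 and 3, and 6634, 5281 and 5178 in SHC4-OE. The groups did not overlap, but Cont replicate 1 was more than 2 times as high as either of the others in its group and stood closer to the SHC4-OE libraries. The means were 2429 ± 1469 and 5698 ± 813 (SD, n = 3 each). The log2 fold change from limma was 1.38 (SE 0.33, 95% confidence interval 0.63 to 2.13), with an adjusted p of 0.162 and place 341 among the 23040 genes ordered by p. DESeq2 gave 1.23 (SE 0.35, adjusted p = 0.0171), and edgeR 1.23 (adjusted p = 0.188). Without Cont replicate 1 limma gave 1.84 (SE 0.15, adjusted p = 0.000698), a call that 1.59% of all genes reached in the higher direction in that fit and 1.47% in the lower. The difference in PDGFRB was thus larger without that library, and the DESeq2 call was lost when any one of the other 5 libraries was left out instead. An exact permutation test of the 6 values gave p = 0.1 (two-sided), the smallest that 3 against 3 libraries can give.

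PDGFRA (ENSG00000134853), the alpha receptor, lies at chr4:54229097-54298247 on the plus strand, with 29 merged exons covering 9732 bases. It had normalized counts of 4755, 3177 and 2408 in Cont and 4414, 4629 and 4247 in SHC4-OE. The SHC4-OE libraries were close to one another, and the groups overlapped through Cont replicate 1, which had the highest value of all 6 libraries. The means were 3447 ± 1196 and 4430 ± 192 (SD, n = 3 each), and limma gave a log2 fold change of 0.42 (SE 0.22, 95% confidence interval -0.08 to 0.91, adjusted p = 0.424). DESeq2 gave 0.36 (adjusted p = 0.489). Without Cont replicate 1 the log2 fold change was 0.68 (adjusted p = 0.0322), which passed the adjusted p but not the fold threshold of a call. In that fit 2.99% of all genes had an adjusted p below 0.05 in the higher direction and 2.69% in the lower. Exons of the readthrough gene AC058822.1 share 1533 bases, 15.8% of the exon length of PDGFRA, on the same strand. AC058822.1 was not analysed here, so reads from it could not be separated from those of PDGFRA.

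The balance between the receptors was read within each library. The ratio of PDGFRA to PDGFRB normalized counts was 1.15, 2.14 and 1.43 in Cont and 0.665, 0.877 and 0.820 in SHC4-OE. The ratio was lower in every SHC4-OE library than in any Cont library, and it does not depend on the scaling between libraries. It does not show which receptor was higher, because their exons differ in length. Per kilobase of exon, PDGFRB was above PDGFRA in Cont replicate 1 (578 against 489 normalized counts per kilobase) and in all SHC4-OE libraries, and below it in Cont replicate 2 (208 against 326) and replicate 3 (235 against 247). On the log2 scale the ratio averaged 0.61 ± 0.45 and -0.35 ± 0.21 (SD, n = 3 each), a difference of -0.96. An exact permutation test gave p = 0.1 (two-sided, 20 assignments, the smallest possible) and 0.15 after adjustment over the 3 ratios computed. The difference was -1.16 without Cont replicate 1.

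PDGFRL (ENSG00000104213) encodes a protein with immunoglobulin-like domains related to those of the PDGF receptors, and it has no kinase domain. It lies at chr8:17576433-17644071 on the plus strand, with 8 merged exons covering 2409 bases. Its normalized counts were 771, 540 and 382 in Cont and 691, 781 and 930 in SHC4-OE. Cont replicate 1 again had the highest value of its group and lay between 2 of the SHC4-OE values. The means were 564 ± 196 and 801 ± 121 (SD, n = 3 each), with a log2 fold change from limma of 0.55 (SE 0.24, 95% confidence interval 0.02 to 1.09). Its unadjusted p was 0.0447, and the adjusted p was 0.332. DESeq2 gave 0.50 (adjusted p = 0.329), and limma without Cont replicate 1 gave 0.81 (adjusted p = 0.0388, below the fold threshold). MTUS1, a microtubule-associated gene on the opposite strand, shares 277 bases, 11.5% of the exon length of PDGFRL, and whether the counting used strand is not given in the sources used here. MTUS1 had normalized counts of 243, 325 and 328 in Cont and 193, 265 and 167 in SHC4-OE (log2 fold change -0.53, limma adjusted p = 0.303).

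Among the ligands, PDGFD was the one whose groups did not overlap. PDGFD (ENSG00000170962) lies at chr11:103907186-104164379 on the minus strand, with 8 merged exons covering 4266 bases. It had normalized counts of 225, 152 and 129 in Cont and 273, 527 and 505 in SHC4-OE. The gap between the groups was narrow, between replicate 1 of either group, whereas replicates 2 and 3 of the groups were far apart. The means were 169 ± 50.3 and 435 ± 141 (SD, n = 3 each). Limma gave a log2 fold change of 1.34 (SE 0.29, 95% confidence interval 0.69 to 2.00), an unadjusted p of 0.00113 (place 193 of 23040) and an adjusted p of 0.135. DESeq2 gave 1.37 (SE 0.32, adjusted p = 0.00158) and called it, and edgeR gave 1.37 (adjusted p = 0.144). Without Cont replicate 1 limma gave 1.57 (adjusted p = 0.0135) and called it. With a library left out in turn, DESeq2 kept the call in 4 of 6 fits and lost it without SHC4-OE replicate 2 or replicate 3, with adjusted p values up to 0.106. The exact permutation test gave p = 0.1 (two-sided), the smallest possible. DDI1, on the opposite strand, shares 193 bases (4.52% of the exon length of PDGFD) and was not analysed here.

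PDGFC (ENSG00000145431), a ligand of the alpha receptor, lies at chr4:156760454-156971394 on the minus strand, with 15 merged exons covering 5593 bases. Its normalized counts were 3142, 4376 and 3856 in Cont and 2867, 4546 and 4522 in SHC4-OE. Replicate 1 was the lowest library of each group, and the groups overlapped throughout. The means were 3791 ± 620 and 3978 ± 963 (SD, n = 3 each), and the log2 fold change was 0.05 (SE 0.21, 95% confidence interval -0.41 to 0.51, limma adjusted p = 0.935). The interval leaves room for a change of up to 0.51 on the log2 scale in the higher direction and 0.41 in the lower. Scaling by library size turned the sign (-0.05), as did leaving out Cont replicate 1 (-0.08), so no direction is given for PDGFC.

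PDGFA (ENSG00000197461), also a ligand of the alpha receptor, lies at chr7:497258-520296 on the minus strand, with 9 merged exons covering 4151 bases. It had normalized counts of 811, 545 and 568 in Cont and 829, 496 and 494 in SHC4-OE. Here replicate 1 was the highest library of each group, and the other 2 libraries of each group lay close together. The means were 641 ± 147 and 606 ± 193 (SD, n = 3 each), with a log2 fold change of -0.10 (SE 0.23, 95% confidence interval -0.62 to 0.42, limma adjusted p = 0.878). Without Cont replicate 1 the sign turned to 0.08, so no direction is given for PDGFA either.

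PDGFB (ENSG00000100311), the ligand that binds both receptors, lies at chr22:39223359-39244751 on the minus strand, with 10 merged exons covering 3761 bases. It rested on 1, 3 and 2 reads in Cont and on 5, 15 and 2 reads in SHC4-OE, which gave normalized counts of 0.97, 3.53 and 1.97 against 4.39, 12.5 and 2.33. Most of these values were at or near the level of 3 reads, and the groups overlapped. The limma log2 fold change of 1.06 had a 95% confidence interval of -0.49 to 2.61 (adjusted p = 0.515). Without Cont replicate 1 it was 0.77 (adjusted p = 0.602). A difference in PDGFB was not detectable at this depth. DESeq2 gave it no adjusted p, and the low count filter used with edgeR removed it.

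**Figure D2:**
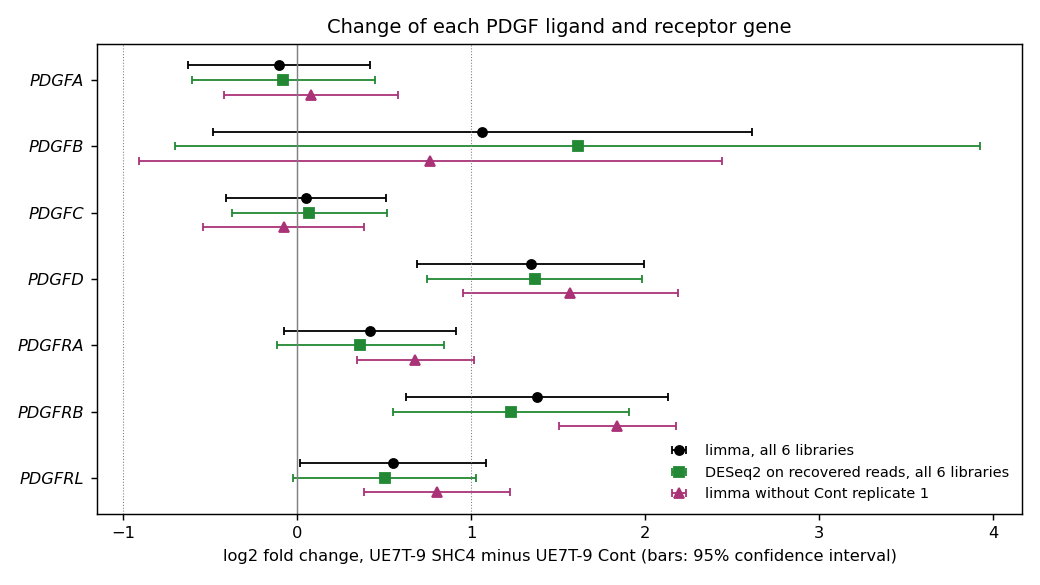
Log2 fold change (UE7T-9 SHC4 minus UE7T-9 Cont) of each PDGF gene with its 95% confidence interval, from limma on all 6 libraries (black circles), DESeq2 on all 6 libraries (green squares) and limma without UE7T-9 Cont replicate 1 (purple triangles), with dotted lines at the fold threshold of 1 in either direction. PDGFD and PDGFRB lie above 1 in all 3 fits, PDGFA and PDGFC lie near 0, and the PDGFRB interval is shortest without UE7T-9 Cont replicate 1.

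The level of each gene per kilobase of merged exon shows which of the PDGF genes these cells carried most of. In Cont, PDGFC was at 678 ± 111 normalized counts per kilobase, above PDGFRA (354 ± 123), PDGFRB (340 ± 206), PDGFRL (234 ± 81.3), PDGFA (154 ± 35.5), PDGFD (39.5 ± 11.8) and PDGFB (0.574 ± 0.343; SD, n = 3). PDGFC stood apart from PDGFRA over the libraries but overlapped PDGFRB, which was above it in Cont replicate 1 (578 against 562). PDGFD and PDGFB each stood apart from the gene above them. From PDGFRA down to PDGFA, neighbours in this order did not differ beyond their spread. In SHC4-OE the order began with PDGFRB (798 ± 114 per kilobase) and PDGFC (711 ± 172), which overlapped, followed by PDGFRA (455 ± 19.7) and PDGFRL (332 ± 50.3), each apart from its neighbours. PDGFA (146 ± 46.4) and PDGFD (102 ± 33.0) overlapped there, where they had been apart in Cont, and PDGFB was lowest at 1.70 ± 1.43 (SD, n = 3). Over all libraries, the mean level per kilobase of PDGFC was at percentile 94.5 of the genes tested, PDGFRB at 93.1, PDGFRA at 89.7, PDGFRL at 85.0, PDGFA at 74.3, PDGFD at 61.4 and PDGFB at 8.72.

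**Figure D3:**
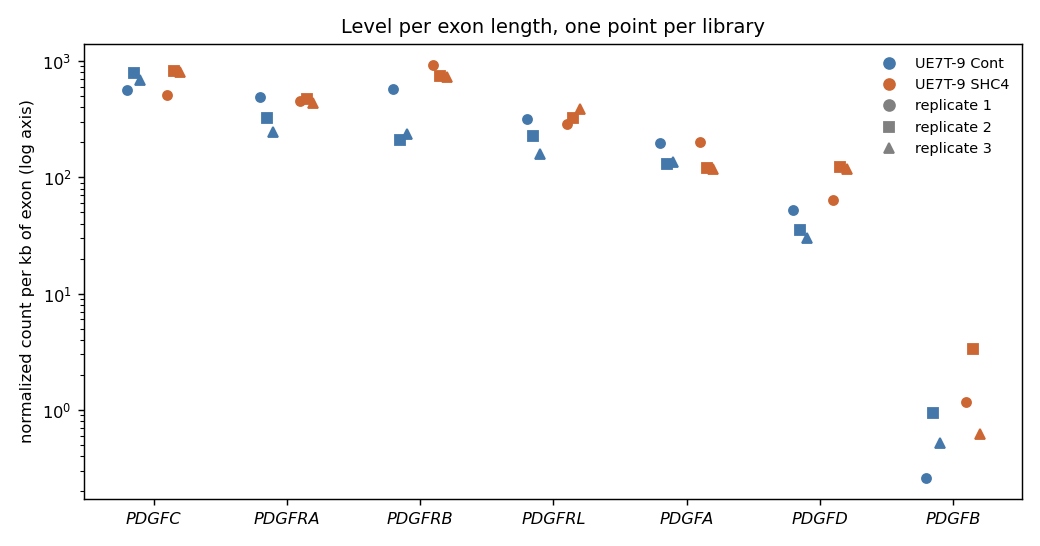
Normalized count per kilobase of merged exon length (log axis) of the 7 PDGF genes, one point per library, in UE7T-9 Cont (blue) and UE7T-9 SHC4 (orange). PDGFC and the receptors fill the top of the range, PDGFB lies far below all others, and PDGFRB lies above PDGFC in replicate 1 of each group and below it in the other libraries.

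Within the ligands, PDGFC made up 65.9% to 82.3% of the summed level per kilobase in every library. The share of PDGFA was 24.1%, 13.8% and 16.0% in Cont and 25.7%, 11.3% and 11.4% in SHC4-OE, so it was highest in replicate 1 of each group. PDGFD, the ligand of the beta receptor, took 6.52%, 3.75% and 3.53% in Cont and 8.24%, 11.7% and 11.3% in SHC4-OE, with means of 4.60% ± 1.67 and 10.4% ± 1.88 (SD, n = 3 each). Its share was above that of every Cont library in all SHC4-OE libraries, while PDGFB took at most 0.313%. The ratio of PDGFD to PDGFC normalized counts was 0.0717, 0.0347 and 0.0334 in Cont against 0.0953, 0.116 and 0.112 in SHC4-OE. The groups did not overlap, and the log2 ratio differed by 1.29 (two-sided exact permutation p = 0.1, the smallest possible, 0.15 adjusted over 3 ratios). The ratio of PDGFC to PDGFA, ligands of the same receptor, was 3.87, 8.03 and 6.79 against 3.46, 9.16 and 9.16, and its log2 difference was 0.15 (exact permutation test, two-sided p = 0.6). That ratio was lowest in replicate 1 of each group, and its difference changed sign without Cont replicate 1 (-0.16).

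**Figure D4:**
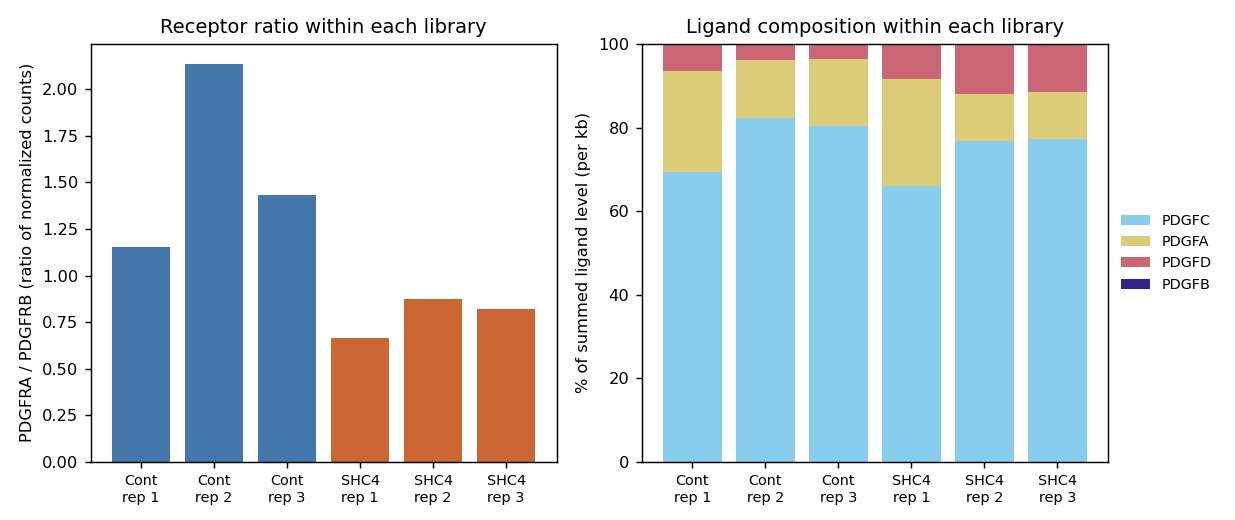
Left, the ratio of PDGFRA to PDGFRB normalized counts in each library (bars from 0); right, the percent of the summed ligand level per kilobase taken by PDGFC, PDGFA, PDGFD and PDGFB in each library. The ratio is lower in each UE7T-9 SHC4 library than in any UE7T-9 Cont library, and the PDGFD share is largest in UE7T-9 SHC4 replicates 2 and 3.

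Genes with patterns like that of PDGFRB were sought among 12677 other genes whose mean was 50 normalized counts or more, by the root mean square difference of log2 values centred on each gene over the 6 libraries. The closest was PDLIM2, a PDZ and LIM domain protein of the actin cytoskeleton, at 0.187, with normalized counts of 824, 371 and 299 in Cont and 1555, 1122 and 909 in SHC4-OE. AC125807.2 followed at 0.206, and FHL1, a LIM domain protein of muscle, at 0.214 (2068, 906 and 1002 against 4718, 2818 and 2327). Like PDGFRB, these genes were high in replicate 1 of both groups, which follows from choosing them by likeness to it. The median difference over all genes was 0.857. PDGFD was at place 303 in the same order (0.495), and its replicate 1 in SHC4-OE was the lowest of that group and not the highest.

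Of the 9 MSC markers, 8 had positive and 1 a negative log2 fold change (median 0.21, against -0.004 over all genes tested). Cont replicate 1 was the highest Cont library in 7 of them and the lowest in 2 (NT5E and ALCAM). NT5E, the surface enzyme CD73, was the one with a negative log2 fold change, with normalized counts of 13089, 22364 and 20649 in Cont and 14682, 12068 and 16005 in SHC4-OE (-0.36, limma adjusted p = 0.508). THY1 and CXCL12, like NT5E, are described after their values were seen, and both were high in the same Cont library as PDGFRB. THY1, the MSC surface antigen CD90, had normalized counts of 7742, 2940 and 2286 in Cont and 7845, 9570 and 7512 in SHC4-OE. CXCL12, a chemokine of bone marrow stroma, had 19481, 4683 and 1880 against 24558, 19535 and 19476. The groups overlapped in both genes. The limma log2 fold change of THY1 was 1.15 (limma adjusted p = 0.234, DESeq2 adjusted p = 0.145). That of CXCL12 was 1.92 (limma adjusted p = 0.2497, DESeq2 adjusted p = 0.516). DESeq2 found 1 of the 9 markers higher and 0 lower at an adjusted p below 0.05. Over all genes with an adjusted p, 2.06% were higher and 2.08% lower, the background for the mural and other markers as well. The higher marker was LEPR, a receptor that marks bone marrow stromal cells. It had 862, 658 and 398 against 1493, 1132 and 1699 (DESeq2 adjusted p = 0.00344, limma adjusted p = 0.137). The part of these shifts in the PDGFRB result was not tested. In RNA from whole cultures, fewer cells that carry a gene and less of its RNA per cell cannot be told apart. Mural cell markers, the cells in which PDGFRB is best known, had a summed normalized count of 12055 to 15530 in Cont and 12217 to 15541 in SHC4-OE, so their ranges overlapped. Of the 9, 3 had positive and 6 negative log2 fold changes (median -0.23). Groups did not overlap in 1 in the higher direction (RGS5) and 3 in the lower (MCAM, KCNJ8 and ABCC9), beside 9.13% and 10.2% of all genes. In DESeq2, 8 of the 9 had an adjusted p. RGS5, a pericyte gene, was higher (206, 155 and 95.4 against 251, 350 and 425, DESeq2 adjusted p = 0.0121, limma adjusted p = 0.166). ABCC9, a potassium channel subunit of mural cells, was lower (469, 766 and 1281 against 266, 201 and 262, DESeq2 adjusted p = 3.14e-05, limma adjusted p = 0.102). Among the other markers, DESeq2 found the epithelial keratin KRT18 lower (41.9, 37.7 and 112 against 21.1, 3.33 and 3.49, adjusted p = 0.00804, limma adjusted p = 0.158).

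Around the PDGF genes, 84 further genes of ligand processing, receptor partners and signalling were followed, of which 83 were listed and tested. Limma called 1 of them higher, the overexpressed SHC4 itself, and 0 lower, with 7 higher and 11 lower at an unadjusted p below 0.05 (7.47% and 6.96% of all genes). At an adjusted p below 0.05 in DESeq2, 3 of the 77 with an adjusted p were higher (SHC4, STAT5A and THBS1) and 4 were lower (PCSK5, PIK3R3, IER3 and SPRY4), where 2.06% of all genes were higher and 2.08% lower. Of the 83, 6 had non-overlapping groups in the higher direction and 16 in the lower, beside 9.13% and 10.2% of all genes. The median limma log2 fold change of the 83 was 0.03, against -0.004 over all genes tested.

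Of 8 proteases listed for the processing of PDGF precursors, 3 had positive and 5 negative log2 fold changes, with a median of -0.18. PCSK5, a proprotein convertase, had normalized counts of 191, 214 and 193 in Cont and 110, 81.6 and 129 in SHC4-OE. The groups did not overlap, with a log2 fold change of -0.92 in limma (adjusted p = 0.151) and -0.91 in DESeq2 (adjusted p = 0.0127). PLAT, the tissue plasminogen activator that removes the CUB domain of PDGFC, is given outside the naming rule. Its values were 2550, 2998 and 3261 against 2738, 1384 and 1528, and the groups overlapped (limma adjusted p = 0.245). PLAU, the urokinase that acts on PDGFD, is also outside the rule, at 3385, 3713 and 5296 against 2752, 3129 and 3085 (log2 fold change -0.44, limma adjusted p = 0.299). Its SHC4-OE libraries were all below the Cont libraries. Over the 8 proteases, groups did not overlap in 0 in the higher direction and 3 in the lower (PCSK5, PLAU and FURIN), beside 9.13% and 10.2% of all genes.

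Of 7 extracellular partners of PDGF signalling, limma and DESeq2 called 0, and the median log2 fold change was 0.26. At an unadjusted p below 0.05, limma had 1 higher and 1 lower (7.47% and 6.96% of all genes), DESeq2 0 and 1 (5.09% and 5.31%) and edgeR 0 and 0 (9.02% and 8.6%). The 1 higher in limma was A2M, given outside the naming rule, and the 1 lower was CCN2. A2M had normalized counts of 787, 376 and 51.2 in Cont and 725, 1482 and 1541 in SHC4-OE, so the groups overlapped. Its log2 fold change was 2.25 (limma adjusted p = 0.267, DESeq2 adjusted p = 0.418). The 3 partners with the highest levels also overlapped between groups. LRP1, a scavenger receptor that binds PDGFRB, ranged from 20889 to 56469 in Cont and from 38972 to 47757 in SHC4-OE (limma adjusted p = 0.607). SPARC, a matrix protein that binds PDGFB, had limma adjusted p = 0.816, and CCN2, connective tissue growth factor, had 0.336. LRP1 and SPARC also had their highest Cont value in replicate 1.

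Of the class III receptor tyrosine kinases, the receptor family of PDGFRA and PDGFRB, FLT3 was not analysed here. KIT, the stem cell factor receptor, is given outside the naming rule, as the neighbour of PDGFRA on chromosome 4. It had normalized counts of 138, 155 and 69.8 in Cont and 306, 201 and 205 in SHC4-OE. The groups did not overlap, and the log2 fold change was 1.02 (limma adjusted p = 0.208, DESeq2 adjusted p = 0.0682). CSF1R, next to PDGFRB on chromosome 5, had 28.3, 27.1 and 47.2 against 39.5, 9.99 and 9.32, with overlapping groups (log2 fold change -1.04, limma adjusted p = 0.435).

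Of 32 genes of receptor proximal signalling, 17 had positive and 15 negative log2 fold changes, with a median of 0.07. STAT5A, a transcription factor recruited to activated PDGF receptors, was at 374, 231 and 221 in Cont and 438, 559 and 497 in SHC4-OE. The groups did not overlap, and Cont replicate 1 was again the highest of its group (log2 fold change 0.89, limma adjusted p = 0.162, DESeq2 adjusted p = 0.0257). PIK3R3, a regulatory subunit of phosphoinositide 3-kinase, was at 639, 731 and 851 against 437, 522 and 512 (log2 fold change -0.59, limma adjusted p = 0.174, DESeq2 adjusted p = 0.0367). All SHC4-OE values of PIK3R3 were below those of Cont. Over the 32 genes, groups did not overlap in 3 in the higher direction and 7 in the lower, beside 9.13% and 10.2% of all genes.

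Of 12 genes of receptor down-regulation, limma and DESeq2 called 0, and 4 had positive and 8 negative log2 fold changes (median -0.09). At an unadjusted p below 0.05, limma, DESeq2 and edgeR each had 1 higher and 2 lower, beside the same shares of all genes as for the extracellular partners. The 3 with the highest levels were HGS, an endosomal sorting protein (limma adjusted p = 0.931), CBLB, a ubiquitin ligase (0.523), and PTPN12, a tyrosine phosphatase (0.303). The PTPN12 values did not overlap, at 2441, 2452 and 2527 in Cont and 2026, 1860 and 2188 in SHC4-OE, with a log2 fold change of -0.29. Over the 12 genes, groups did not overlap in 1 in the higher direction and 3 in the lower, beside 9.13% and 10.2% of all genes.

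Of 22 genes induced by PDGF in fibroblasts, 12 had positive and 10 negative log2 fold changes, with a median of 0.04. THBS1, the matrix protein thrombospondin-1, was at 84988, 70551 and 44876 in Cont and 106680, 123577 and 128700 in SHC4-OE (log2 fold change 0.89, limma adjusted p = 0.274, DESeq2 adjusted p = 0.0178). IER3, an immediate early gene of cell survival, was at 1553, 2652 and 1952 against 845, 647 and 1339 (log2 fold change -1.15, limma adjusted p = 0.156, DESeq2 adjusted p = 0.00856). SPRY4, an inhibitor of receptor tyrosine kinase signalling, was at 447, 653 and 660 against 436, 281 and 321 (log2 fold change -0.76, limma adjusted p = 0.188, DESeq2 adjusted p = 0.0486). The groups did not overlap in these 3 genes, with THBS1 in one direction and IER3 and SPRY4 in the other. Over the 22 genes, groups did not overlap in 1 in the higher direction and 3 in the lower, beside 9.13% and 10.2% of all genes.

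**Figure D5:**
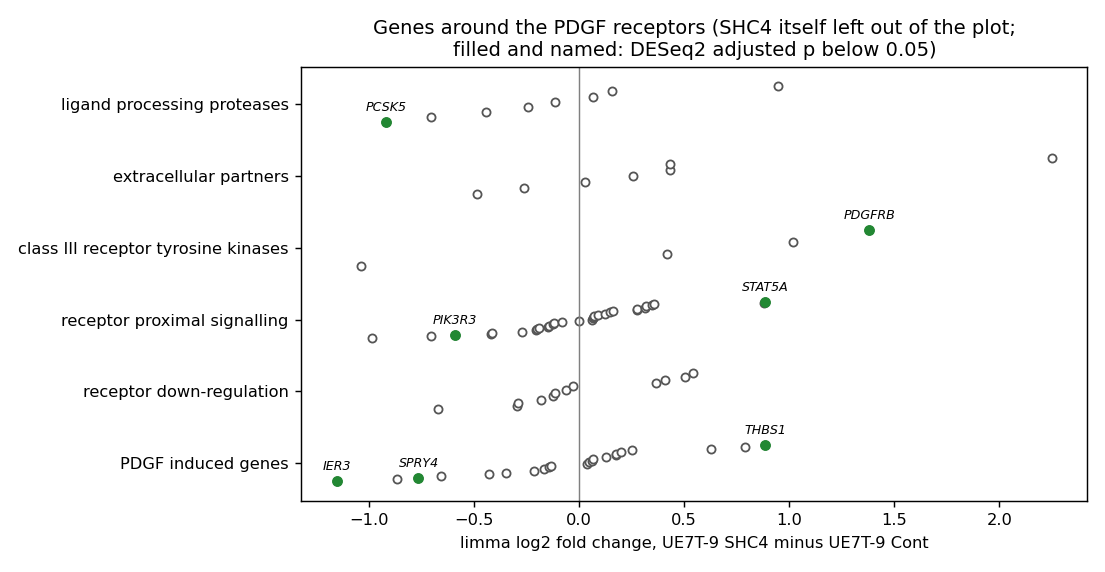
Limma log2 fold change (UE7T-9 SHC4 minus UE7T-9 Cont) of the genes around the PDGF receptors by list, 1 point per gene, with filled and named points for a DESeq2 adjusted p below 0.05; SHC4 is left out, and the class III list holds PDGFRA and PDGFRB. Points lie on both sides of 0 in every list, and PDGFRB is the named point farthest to the right.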

How the data were processed

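Total RNA (RNeasy Mini Kit, 3 samples in each group) was made into NEBNext Ultra RNA libraries and sequenced on a NovaSeq system. For each library the authors deposited 1 signal value a gene, its count divided by a size factor. The submitters' processing notes name HISAT2 2.0.5, featureCounts 1.5.0-p3 and DESeq2. Genome build, annotation and strand setting are not given in the sources used here. All values were whole multiples of 1 read (100%, tolerance 0.01 reads), which gave the reads back.

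Groups came from the sample labels. Genes with a mean of at least 1 (23040 of 28181) were tested with limma 3.58.1 (trend) in R 4.3.3 on log2(value + 1), with Benjamini-Hochberg adjustment over all of them. DESeq2 1.42.0 and edgeR 4.0.16 (quasi-likelihood, TMM, filterByExpr) on the recovered reads, other scalings, filters and pseudocounts, a replicate block and leaving out each library were alternatives, and DESeq2 with each library left out was added after the data were seen. Limma was tested on simulated data. The level of 3 reads covers counting error only. Positions and exon lengths are from GENCODE 29 (GRCh38), which held all 28181 identifiers.

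The PDGF genes, the lists of genes around them and the markers were chosen with earlier results of these data known. The genes named are the 7 PDGF genes, SHC4, list genes that passed limma or had an adjusted p below 0.05 in DESeq2, otherwise up to 3 of a list with the highest mean, the 3 genes most like PDGFRB, and genes whose exons overlap a PDGF gene. Genes outside this rule were picked after seeing their values.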

Additional observations from a re-analysis of the deposited data

How the results depend on the processing

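PDGFD and PDGFRB stayed higher in SHC4-OE in every alternative run, and the fits that called them were those of DESeq2 (1.37 and 1.23 on the log2 scale) and fits without a library. With a library left out, limma and DESeq2 together gave 1.17 to 1.65 for PDGFD and 0.97 to 1.85 for PDGFRB. Limma called each only without Cont replicate 1, and DESeq2 called PDGFD in 4 of 6 such fits and PDGFRB in 1 of 6. PDGFRA and PDGFRL kept a positive sign and were not called. For PDGFA the range with a library left out was -0.38 to 0.13, and for PDGFC -0.078 to 0.27. Signs turned without Cont replicate 1 and without SHC4-OE replicates 2 and 3 for both. Library size scaling, which shifted the median of all genes by -0.10, gave -0.052 for PDGFC. The difference of the log2 ratio of PDGFC to PDGFA ranged from -0.16 to 0.62 with a library left out. The other log2 ratios kept their sign. PDGFB had no value with edgeR or with a minimum mean of 10, and DESeq2 gave it no adjusted p.

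Genes called higher numbered 12 in limma and 170 in DESeq2. In limma they numbered 22 with library size scaling, 20 with TMM normalization and 31 without a filter on low values. With a library left out, limma called 1 to 367 higher (367 without Cont replicate 1) and DESeq2 called 47 to 475. Genes called lower numbered 2 in limma, 185 in DESeq2 and 1 in edgeR. In limma they numbered 6 with library size scaling, 4 with TMM normalization, 9 without a filter and 1 with a pseudocount of 0.1. With a library left out, limma called 0 to 339 lower and DESeq2 called 58 to 417. The cause of these shifts was not tested.

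The replicate numbers in the labels were checked for pairing: across genes, the deviations from the group mean in libraries 1, 2 and 3 of either group had correlations of 0.15, 0.013 and -0.0070, so the numbers were not taken as pairs. Replicate 1 of Cont was closest across groups to replicate 1 of SHC4-OE (r = 0.9745), whereas replicate 2 of Cont was closest to replicate 3 (r = 0.9676). With the replicate block limma called 25 genes higher and 14 lower and no PDGF gene (adjusted p = 0.0538 for PDGFRB and 0.111 for PDGFD).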
